A study of Mus musculus with 6 samples.

Results

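Antibody gene segments made up 64 of the 28510 rows of the RNA table from tibialis anterior, a shin muscle. They were the rows named as constant or variable segments of the heavy (Igh), kappa (Igk) or lambda (Igl) locus, together with Igj, that held 10 or more raw read counts over all 6 libraries. Ighmbp2 and the Igll genes are not such segments and were not taken. The set comprised 31 heavy chain segments (5 constant, 26 variable), 32 light chain segments (1 constant and 27 variable of kappa, 2 constant and 2 variable of lambda) and Igj. Constant segments numbered 8 and variable segments 55.

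An antibody is built of paired heavy and light chains. Each B cell joins a variable segment to short joining pieces and a constant segment, so its chains carry the variable segment that this cell chose, and its descendants keep it. Plasma cells, the secreting end stage of this lineage, transcribe heavy and light chain genes at very high levels and add the J chain when they export IgM or IgA in joined form. IgM is made first, and switching then replaces the IgM constant segment by that of an IgG subclass or another class. Skeletal muscle fibres are not known as a source of antibody, and muscle at rest holds few lymphocytes.

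The 6 samples were frozen tibialis anterior of C57BL/6 mice at 12 months of age, in 2 groups of 3. WT samples carried H2A-Z.1 flox/flox and H2A-Z.2 flox/flox alleles and were wild type for HSA Cre. KO samples were H2A-Z.1-/- and H2A-Z.2-/- and carried HSA Cre. The HSA (human skeletal actin) promoter drives Cre in muscle fibres, so that other cells of the muscle should keep both genes, and no Cre-only samples were part of the comparison. The comparison addressed what H2A.Z, a histone variant, does for transcription in skeletal muscle. Whether the replicates were separate animals is not stated in the labels, and p-values here cover the spread among the samples as given.

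Total counts ran from 35456883 in WT replicate 2 to 102919416 in KO replicate 3. Both targeted genes fell in KO, H2afz with 557 to 1509 counts in the WT libraries and 269 to 525 in the KO libraries (log2 fold change -1.85, SE 0.16, edgeR adjusted p = 4.42e-05) and H2afv with 560 to 1558 and 245 to 487 (-2.17, SE 0.16, edgeR adjusted p = 2.42e-05). The fibre gene Ckm, which encodes muscle creatine kinase, stood at 24226 ± 2878 TMM-scaled CPM, read counts scaled to a common library size, in WT and 15288 ± 3719 in KO (SD, n = 3 each), so the libraries held muscle RNA as labelled. Of 8 fibre genes tested, with a median log2 fold change of -0.53, Tnnt3, which encodes fast troponin T, was the 1 called lower, and 0 were called higher. This number depended on the setting, with 5 lower by DESeq2, 3 by limma-voom, 4 without KO replicate 3 and 0 on leaving out WT replicate 1, WT replicate 3, KO replicate 1 or KO replicate 2, where 1 to 3 had an unadjusted p under 0.05. With the expression filter, 16628 genes were tested by edgeR, of which 2249, or 13.5%, were called higher in KO and 25.9% were called in either direction. Leaving out KO replicate 1 gave 1391 genes higher, and leaving out WT replicate 3 gave 1477.

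Most of the 64 members were present through the KO libraries. All 64 reached 10 counts from the KO libraries alone, and 6 did so from the WT libraries alone. Over the 3 WT libraries, 41 members had 0 counts, all of them variable, and another 17 had between 1 and 9. The count minimum therefore fixed the direction of much of the set, and the values below describe it. In whole tissue, more cells of a type and more RNA per cell cannot be told apart. Just inside the minimum lay 6 variable segments with 10 or 11 counts, all of them counted in KO. Just outside lay 10 segments with 8 or 9 counts, and in all 81 segments stayed under the minimum, with 30 counts in WT and 265 in KO together. After the filter 8 members could be tested, and 6 of them were called higher and 0 lower. There were 13.5% called higher among all genes tested, and nothing is read from the difference, since the members were chosen by their counts. By the authors' deposited table, there were 8 members higher in KO at an adjusted p below 0.05, against 7.25% of all genes.

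The IgM constant segment, Ighm, stood apart, with high counts in WT and KO alike. It held 3467, 833 and 4442 counts in WT replicates 1 to 3 and 3972, 2259 and 3383 in KO replicates 1 to 3. In TMM-scaled CPM these were 42.6, 23.7 and 66.5 in WT and 39.0, 34.8 and 31.8 in KO. All KO values lay inside the range of the WT values. The means were 44.3 ± 21.4 in WT and 35.2 ± 3.64 in KO (SD, n = 3 each), a log2 fold change of -0.33 (SE 0.29, edgeR adjusted p = 0.429). The estimate turned to 0.080 without WT replicate 3, with an edgeR adjusted p of 0.846. Ighm thus carried no call in either direction, and its WT spread was wide.

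Ighg2c, the IgG2c constant segment of the C57BL/6 strain, was the other heavy constant segment with a clear WT level. Its counts were 250, 53 and 444 in WT and 1403, 392 and 529 in KO, or 3.07, 1.51 and 6.64 against 13.8, 6.03 and 4.97 CPM. The groups overlapped, because WT replicate 3 lay above KO replicates 2 and 3. The means were 3.74 ± 2.63 CPM in WT and 8.26 ± 4.81 in KO (SD, n = 3 each), and the log2 fold change of 1.12 (SE 0.48) was not past the threshold (edgeR adjusted p = 0.109). No source used here gives where in Ighm and Ighg2c the reads lay, and whether their WT counts came from antibody transcripts was not tested. Without WT replicate 3 the log2 fold change of Ighg2c was 1.82 with an edgeR adjusted p of 0.0333, and without KO replicate 1 it was 0.54.

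Ighg2b, the IgG2b constant segment, was nearly absent from WT. It held 1, 12 and 1 counts in WT and 1822, 65 and 849 in KO, or 0.0123, 0.342 and 0.0150 against 17.9, 1.00 and 7.97 CPM. Every KO library lay above every WT library, as was the case for 21.6% of all genes tested, and the KO libraries themselves spread widely, with replicate 2 far below the other two. Ighg2b passed the expression filter only with its KO counts, so a lower call was hardly open to it. The log2 fold change was 6.75 (SE 1.15, edgeR adjusted p = 0.00225), a 107-fold difference. It was 9.22 without WT replicate 2 and 5.74 without KO replicate 1. Leaving out WT replicate 1 gave 6.00, WT replicate 3 gave 6.17 and KO replicate 2 gave 7.32. With robust dispersion estimation the edgeR adjusted p was 0.056. In the authors' deposited table Ighg2b had a log2 fold change of 0.98 and an adjusted p of 0.106. It was thus not called there, and the size of the difference depended strongly on the method.

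The remaining IgG subclasses appeared in part of the KO libraries. Ighg3, of IgG3, had 0, 1 and 0 counts in WT and 100, 0 and 140 in KO. Ighg1, of IgG1, had 3, 0 and 0 in WT and 0, 0 and 103 in KO. KO replicate 2 lacked both, and KO replicate 1 lacked Ighg1. A count of 0 limits the level in a library only to under 3 counts, which covers counting error alone.

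**Figure D1:**
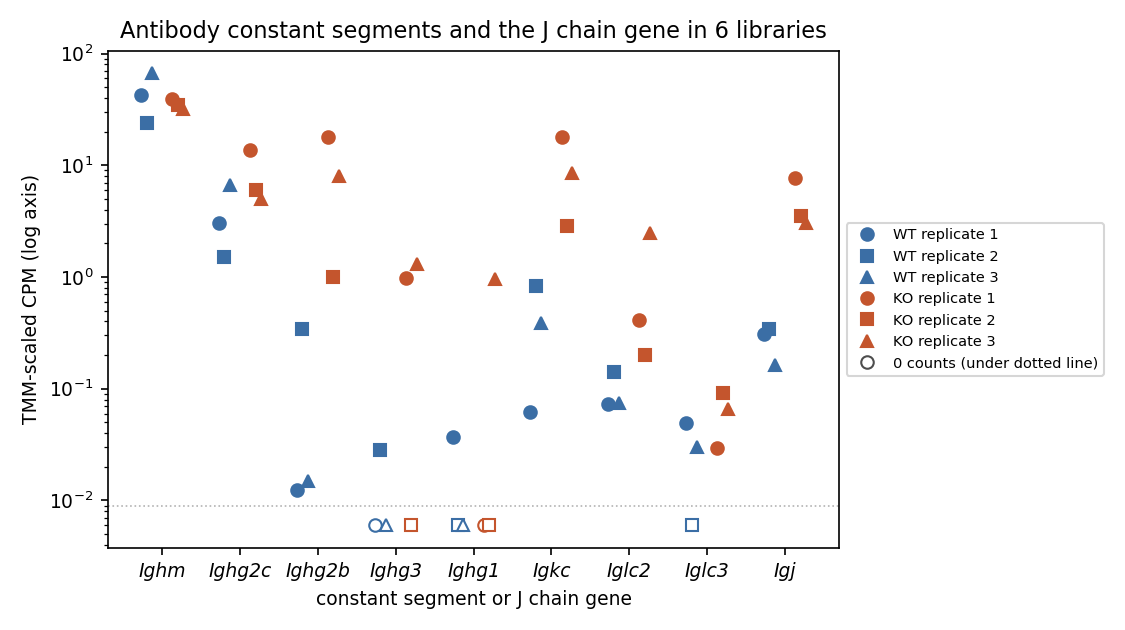
TMM-scaled CPM of the 8 constant segments and Igj in each library, on a log axis. Blue symbols are WT and red symbols KO, the symbol shape gives the replicate, and open symbols under the dotted line had 0 counts. Ighm lay between 23.7 and 66.5 CPM in all 6 libraries, while Igkc, Ighg2b and Igj were higher in every KO library than in any WT library.

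The 4 IgG subclasses differ most in their hinge, the flexible stretch whose cysteines join the heavy chains, and their hinge exons are shown because the subclass results rest on telling these segments apart. The exons come from the GENCODE transcripts of the mouse build GRCm38, on the minus strand at chr12:113329844-113329882 for Ighg1, chr12:113307261-113307326 for Ighg2b, chr12:113288263-113288325 for Ighg2c and chr12:113360529-113360576 for Ighg3, all inside protein-coding exons. Capitals mark the cysteine codons read in frame.
Ighg1: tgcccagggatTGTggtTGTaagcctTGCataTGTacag
Ighg2b: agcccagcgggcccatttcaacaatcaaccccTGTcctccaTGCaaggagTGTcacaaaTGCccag
Ighg2c: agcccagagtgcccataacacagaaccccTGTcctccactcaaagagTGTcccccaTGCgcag
Ighg3: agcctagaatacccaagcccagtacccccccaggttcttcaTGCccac
The hinge exon held 4 marked codons in Ighg1 and Ighg2b, 3 in Ighg2c and 1 in Ighg3. Over the CH1, hinge and CH2 exons together, Ighg2b and Ighg2c were 89.8% identical, the most alike pair, and Ighg1 and Ighg3 were 74.4% identical, the least alike. Reads from the most alike stretches could have been divided between Ighg2b and Ighg2c by the counting.

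The make-up of the IgG counts differed between the KO libraries. Ighg2b took 54.8% of the IgG constant counts in KO replicate 1 (95% exact binomial interval 53.1 to 56.5), 14.2% in KO replicate 2 (11.2 to 17.8) and 52.4% in KO replicate 3 (49.9 to 54.8). Ighg2c took 42.2%, 85.8% and 32.6% in the same order. Ighg1 reached 6.35% and Ighg3 8.64% in KO replicate 3, the only library of the 6 with over 3 counts of Ighg1. In WT, Ighg2c took 98.4%, 80.3% and 99.8% of 254, 66 and 445 IgG counts. These intervals cover counting error only, and reads are not independent molecules.

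**Figure D2:**
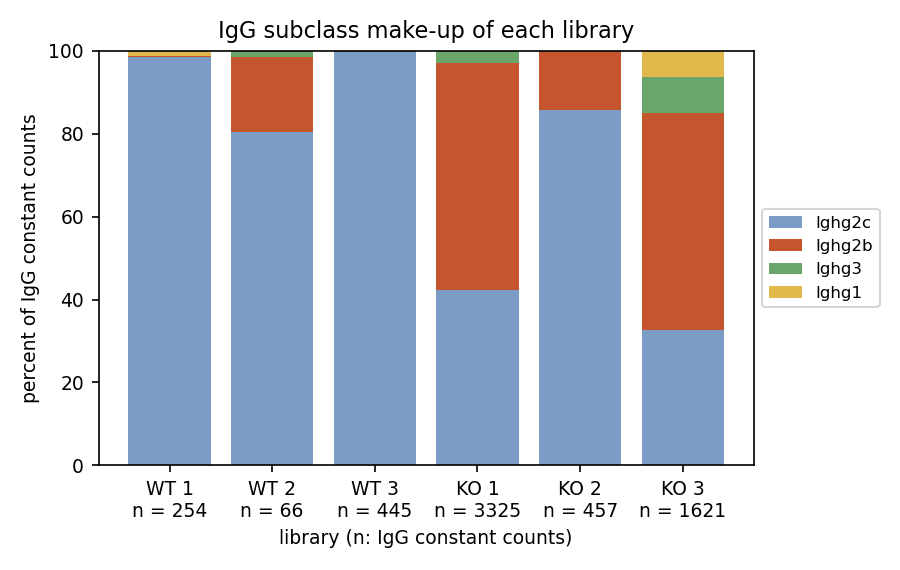
Share of each IgG subclass in the IgG constant counts of each library, in percent, with the number of such counts under each bar. Ighg2c formed 80.3% or more of the bar in the 3 WT libraries and in KO replicate 2, and Ighg2b was the largest part in KO replicates 1 and 3.

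Among the light chains, Igkc, the sole kappa constant segment, held 5, 29 and 26 counts in WT and 1817, 185 and 903 in KO. In CPM these were 0.0614, 0.826 and 0.389 against 17.8, 2.85 and 8.48. The groups did not overlap, and KO replicate 1 was highest and KO replicate 2 lowest among the KO libraries, the same order as for Ighg2b. As for Ighg2b, only the KO counts of Igkc took it past the expression filter, and a lower call was hardly open. The log2 fold change was 4.73 (SE 0.77, edgeR adjusted p = 0.00177), or 26.6-fold. It ran from 3.94 without KO replicate 1 to 5.48 without WT replicate 2, and was 4.08 without WT replicate 1. In the authors' deposited table it was smaller, at 1.63, with an adjusted p of 0.00534.

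The lambda constant segments were lower and ordered differently. Iglc2 held 6, 5 and 5 counts in WT and 42, 13 and 266 in KO, with KO replicate 3 far above the other KO libraries and no overlap between the groups. Iglc2 too passed the expression filter only with its KO counts. The log2 fold change of Iglc2 was 3.53 (SE 0.90, edgeR adjusted p = 0.0162). The call rested on single libraries, since the edgeR adjusted p was 0.0525 on leaving out WT replicate 1 and 0.0739 on leaving out WT replicate 3. Leaving out KO replicate 3 gave a log2 fold change of 1.79 with an edgeR adjusted p of 0.0564. Iglc3 had 4, 0 and 2 counts in WT and 3, 6 and 7 in KO, and its groups overlapped. Iglc2 and Iglc3 were 94.3% identical over the whole transcript, so the split of counts between them is uncertain.

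Kappa took most of the light chain counts in KO, with the share differing between libraries. It was 98.1% in KO replicate 1 (95% exact binomial interval 97.6 to 98.6), 85.9% in KO replicate 2 (81.7 to 89.4) and 78.4% in KO replicate 3 (76.3 to 80.3). The interval of KO replicate 1 did not meet those of the other KO libraries. In WT the same share rested on 20, 45 and 38 light chain counts and was 40.0%, 88.9% and 81.6%, with intervals as wide as 19.1 to 64.0.

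Igj, which encodes the J chain, was the member with the lowest p. It held 25, 12 and 11 counts in WT and 790, 226 and 322 in KO, or 0.307, 0.342 and 0.165 against 7.76, 3.48 and 3.02 CPM. The groups did not overlap, and the highest KO library exceeded the lowest by less for Igj than for Igkc or Ighg2b. The log2 fold change was 4.16 (SE 0.43, edgeR adjusted p = 1.37e-04), or 17.9-fold, and it stayed between 3.62 and 4.44 when single libraries were left out.

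Heavy and light constant segments did not keep the same proportion in WT and KO. For each Igkc count there were 693, 28.7 and 171 Ighm counts in WT and 2.19, 12.2 and 3.75 in KO, with no overlap between the groups. Between genes, levels can be compared only per length, and in the authors' deposited length-divided signal Ighm exceeded Igkc 164-fold, 6.79-fold and 40.4-fold in WT. In KO the ratio of these signals was 0.517, 2.89 and 0.885. The Ighm signal itself stood at 2220, 1240 and 3460 in WT and 2058, 1805 and 1639 in KO, and the Igkc signal at 13.6, 183 and 85.7 against 3984, 626 and 1851. Ighm was above Igkc in the 3 WT libraries and in KO replicate 2, and below it in KO replicates 1 and 3.

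**Figure D3:**
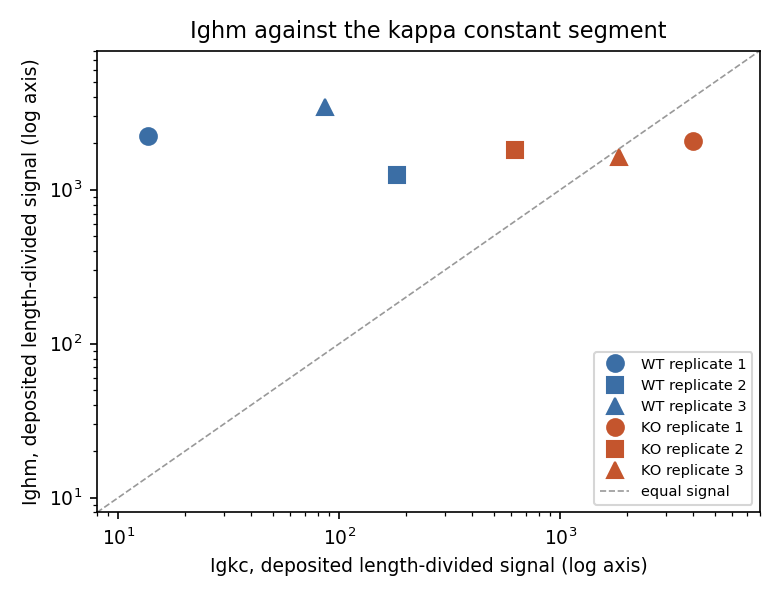
Deposited length-divided signal of Ighm (vertical) against that of Igkc (horizontal) in each library, both on log axes, with blue for WT, red for KO and symbol shape for the replicate. The dashed line marks equal signal. Ighm stayed between 1240 and 3460 in the 6 libraries while Igkc ran from 13.6 in WT replicate 1 to 3984 in KO replicate 1.

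Summed over all 64 members, the groups overlapped, and without Ighm and Ighg2c they did not. The sums were 46.3, 27.3 and 73.9 CPM in WT and 115, 51.7 and 68.7 CPM in KO. Without Ighm and Ighg2c, a split chosen after their values were seen, the sums were 0.626, 2.05 and 0.763 CPM in WT and 62.3, 10.9 and 32.0 CPM in KO. The light chains together gave 0.246, 1.28 and 0.569 CPM in WT and 28.6, 5.23 and 15.6 in KO, and the variable segments 0.0860, 0.370 and 0.0898 against 17.4, 3.31 and 7.71. Of the WT libraries, replicate 2 was the shallowest, and it had the highest CPM of light chain and variable segments. The ratio of KO to WT means was 23.6 for light chains and 52.1 for variable segments, and 40.5 and 108 without WT replicate 2.

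Heavy chains took 99.5%, 95.2% and 99.2% of heavy and light counts in WT and 73.3%, 89.2% and 76.2% in KO. Without Ighm and Ighg2c the direction turned, with 23.1%, 25% and 5% in WT and 47.5%, 29.8% and 46.1% in KO. Those WT shares rested on 26, 60 and 40 counts. Among variable segments alone, the heavy share in KO was close between libraries, at 40.6% (95% exact binomial interval 38.3 to 42.9), 36.7% (30.3 to 43.6) and 40.4% (37.1 to 43.9). These 3 intervals overlapped. Variable segments made up 36.5%, 36.6% and 30.8% of all kappa counts in the KO libraries, while they made up 16.2%, 6.86% and 11.7% of all heavy and light counts.

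The variable segments differed strongly between the KO libraries. With 1 count as the minimum, and all segment rows taken whatever their total, 47, 24 and 27 heavy variable segments were detected in KO replicates 1 to 3, against 5, 5 and 3 in WT. For kappa these numbers were 49, 31 and 29 against 4, 8 and 6. Thinned to the total of the smallest library, 79.0, 47.3 and 42.8 variable segments of any kind were left in KO and 5.59, 13.0 and 5.48 in WT. KO replicates 2 and 3 shared 7 heavy segments, 29.2% of the first and 25.9% of the second, and 12 kappa segments, 38.7% and 41.4%. KO replicate 2 held 104 heavy and 138 kappa variable counts, and KO replicate 3 held 369 and 426. Thinning evened the library totals and not these counts. How much of the low sharing came from few reads was not tested. KO replicate 1, which had the most counts, shared 17 heavy segments with replicate 2 and 18 with replicate 3. Counts were found in all 3 KO libraries for 16 of the 55 variable members, in exactly 2 for 26 and in exactly 1 for 13. In 32 of the 55, over 80% of all counts came from 1 library.

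**Figure D4:**
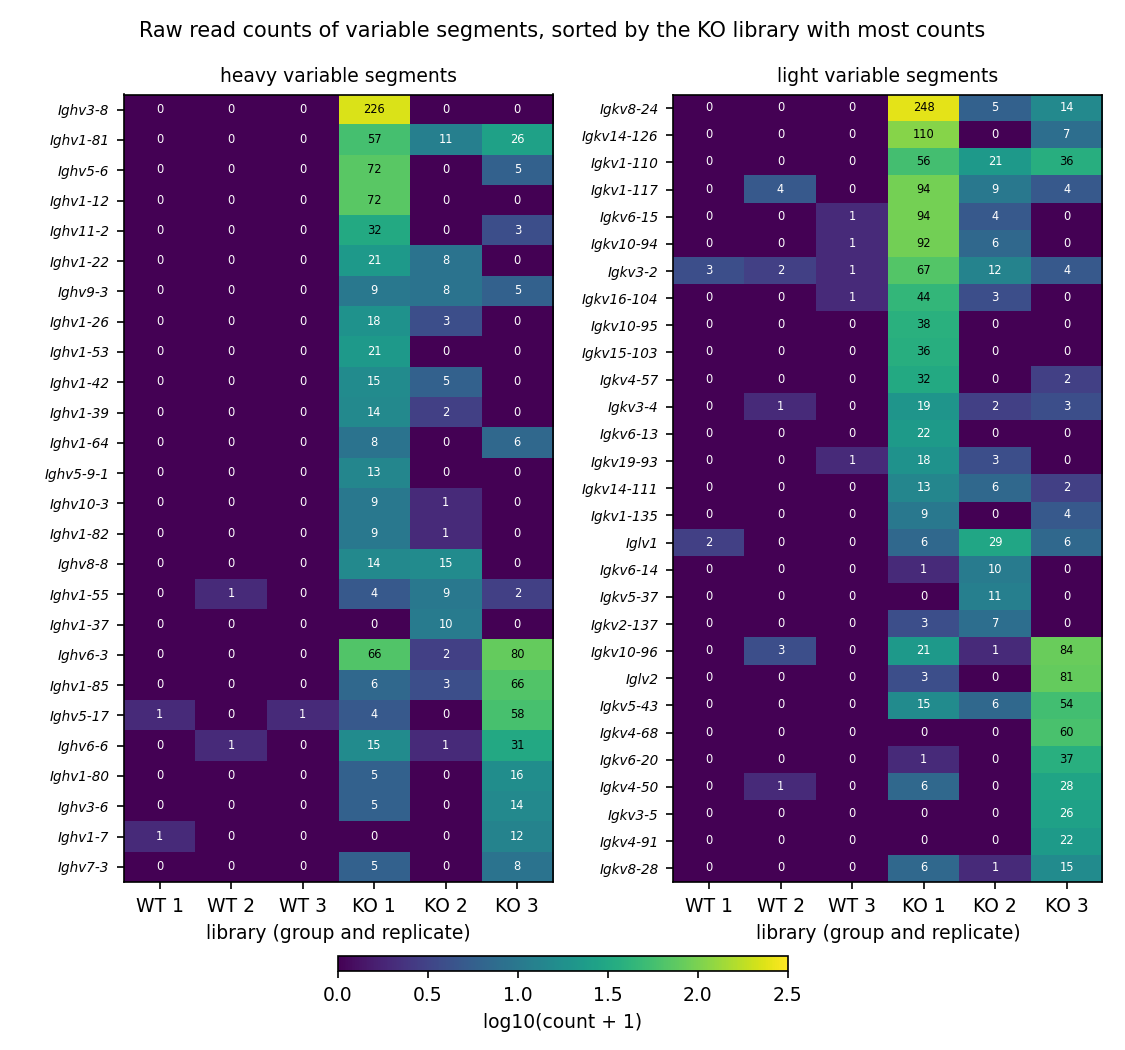
Raw read counts of the 26 heavy and 29 light variable segments in each library, with the count printed in each cell and colour on a log10(count + 1) scale. Segments are sorted by the KO library with most counts, which was replicate 1 for 31, replicate 2 for 7 and replicate 3 for 17 of them.

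The leading segment was a different one in each KO library. Among heavy segments Ighv3-8 led KO replicate 1 with 226 counts, 28.7% of its heavy variable counts, and had 0 counts in every other library. Ighv8-8 led KO replicate 2 with 15 counts, and Ighv6-3 led KO replicate 3 with 80 counts. The lead of Ighv8-8 was narrow, with 11 counts of Ighv1-81 next, and it had 14 counts in KO replicate 1 as well. Among kappa segments Igkv8-24 led KO replicate 1 with 248 counts, Igkv1-110 led KO replicate 2 with 21 and Igkv10-96 led KO replicate 3 with 84. Igkv1-110 had more counts in KO replicates 1 and 3, 56 and 36, than in the library it led. Of the lambda segments, Iglv1 had 29 of its counts in KO replicate 2, with 6 and 6 in the others and 2 in WT replicate 1, while Iglv2 had 81 in KO replicate 3, 3 in KO replicate 1 and 0 elsewhere. Igkv14-126, with 110 and 7 counts in KO replicates 1 and 3 and 0 elsewhere, was the remaining member with at least 100 counts and over 80% of them in 1 library, beside Ighv3-8, Igkv8-24, Igkv1-117 and Ighg1.

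The remaining abundant segments were spread unevenly over the KO libraries. Ighv6-3 had 66, 2 and 80 counts in KO, Ighv1-81 had 57, 11 and 26, Ighv1-85 had 6, 3 and 66, and Ighv5-6 and Ighv1-12 each had 72 in KO replicate 1, with 5 counts of Ighv5-6 in KO replicate 3. Ighv5-17 had 58 in KO replicate 3 and 1 count each in WT replicates 1 and 3, and Ighv6-6 had 15, 1 and 31 in KO and 1 in WT replicate 2. Among kappa segments, Igkv1-117 had 94, 9 and 4 counts in KO and 4 in WT replicate 2. Igkv6-15 had 94 and 4, and Igkv10-94 had 92 and 6, in KO replicates 1 and 2, each with 1 count in WT replicate 3. Igkv3-2, with 67, 12 and 4 counts in KO, was the variable member with most WT counts, 3, 2 and 1.

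Only 2 variable segments, Igkv1-110 and Ighv1-81, passed the expression filter, and both had 0 counts in WT and counts in every KO library. They passed it through KO counts alone, so their direction was fixed in advance and their p-values add no support for it. Igkv1-110, with 56, 21 and 36 counts in KO, was at least 25.3-fold higher in KO against a floor of 3 counts over the WT group (edgeR adjusted p = 7.89e-04). Ighv1-81 was at least 21.0-fold higher (edgeR adjusted p = 0.00279). When every row with 10 counts was tested, so that all 64 members entered, 14 were called higher, among them Ighv6-3, Igkv5-43 and Ighg3, where 9.88% of all genes tested were called higher. Without any filter 47 were, beside 9.52% of all genes. Without WT replicate 2, 18 members passed the filter and 13 were called, beside 10.1% of all genes, and without KO replicate 2, 14 passed and 12 were called, beside 13.6%. Nothing is read from these differences either, for the same reason.

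The 4 variable segments below are shown because they stand for both patterns. Ighv3-8 and Igkv8-24 had most or all of their counts in KO replicate 1, and Ighv1-81 and Igkv1-110 were counted in every KO library. Each is the last part of the main coding exon of the segment from the GENCODE transcript of GRCm38, at chr12:114322376-114322660 and chr12:115920279-115920563 on the minus strand, chr6:70216858-70217142 on the minus strand and chr6:68270983-68271267 on the plus strand. Capitals mark the in-frame cysteine codon near the end, after which the junction of the antibody begins, and the heavy segments are printed up to 6 bases after it.
Ighv3-8: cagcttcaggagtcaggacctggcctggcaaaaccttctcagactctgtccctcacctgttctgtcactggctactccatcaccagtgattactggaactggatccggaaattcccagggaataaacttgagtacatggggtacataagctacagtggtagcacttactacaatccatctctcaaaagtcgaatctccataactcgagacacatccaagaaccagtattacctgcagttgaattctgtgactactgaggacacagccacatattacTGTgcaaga
Ighv1-81: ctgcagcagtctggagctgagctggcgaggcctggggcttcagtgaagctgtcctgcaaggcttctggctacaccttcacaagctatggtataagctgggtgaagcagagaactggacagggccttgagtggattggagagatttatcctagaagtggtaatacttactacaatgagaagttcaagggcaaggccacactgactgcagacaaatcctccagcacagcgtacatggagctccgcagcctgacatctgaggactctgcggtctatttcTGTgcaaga
Igkv8-24: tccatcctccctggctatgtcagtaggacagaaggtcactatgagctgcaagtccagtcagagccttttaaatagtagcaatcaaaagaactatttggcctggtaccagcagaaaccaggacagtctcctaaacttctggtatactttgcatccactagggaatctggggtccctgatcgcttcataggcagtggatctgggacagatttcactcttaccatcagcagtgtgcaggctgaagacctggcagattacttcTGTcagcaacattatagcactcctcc
Igkv1-110: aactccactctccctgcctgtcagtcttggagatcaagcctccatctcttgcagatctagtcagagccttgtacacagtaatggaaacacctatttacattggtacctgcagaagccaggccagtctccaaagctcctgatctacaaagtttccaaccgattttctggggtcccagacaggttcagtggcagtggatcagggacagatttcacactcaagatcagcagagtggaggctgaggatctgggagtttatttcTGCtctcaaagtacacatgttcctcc
The light segments run for 23 bases past the marked codon. These are unmutated germline sequences of the reference, and the bases that joining or mutation put into the antibodies of these mice are not part of the count table.

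How well such segments can be told apart by short reads differs between them. Of the 55 variable members, 28 had another annotated segment of the same locus at 95% identity or more and 5 at 98% or more, with a median of 95.3% to the nearest segment. Ighv3-8 stood at 76.9% to its nearest segment and Igkv8-24 at 91.8%. These values align whole annotated exons end to end, so unequal exon lengths lower them. Whether Ighv3-8 is as distant over the bases it shares with its relatives was not tested. The 3 members of kappa family 10 are an example of close relatives with different counts. Igkv10-94 had 92, 6 and 0 counts in KO replicates 1 to 3, Igkv10-95 had 38, 0 and 0, and Igkv10-96 had 21, 1 and 84. The stretch from the first base of the mature protein is shown for each, with the 21 positions at which they differ in capitals, from chr6:68704508-68704794 (minus strand), chr6:68680562-68680848 (plus strand) and chr6:68631963-68632249 (minus strand) of GRCm38.
Igkv10-94: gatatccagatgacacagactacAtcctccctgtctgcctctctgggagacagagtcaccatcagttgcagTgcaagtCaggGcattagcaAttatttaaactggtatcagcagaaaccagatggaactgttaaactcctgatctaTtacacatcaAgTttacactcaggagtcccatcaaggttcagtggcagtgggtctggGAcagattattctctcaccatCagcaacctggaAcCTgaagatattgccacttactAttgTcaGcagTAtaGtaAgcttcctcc
Igkv10-95: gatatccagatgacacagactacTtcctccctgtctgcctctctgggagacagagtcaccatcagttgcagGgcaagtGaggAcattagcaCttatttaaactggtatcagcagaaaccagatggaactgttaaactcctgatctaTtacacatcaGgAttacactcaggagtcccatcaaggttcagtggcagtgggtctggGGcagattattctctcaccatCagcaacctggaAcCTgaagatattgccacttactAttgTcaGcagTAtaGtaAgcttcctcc
Igkv10-96: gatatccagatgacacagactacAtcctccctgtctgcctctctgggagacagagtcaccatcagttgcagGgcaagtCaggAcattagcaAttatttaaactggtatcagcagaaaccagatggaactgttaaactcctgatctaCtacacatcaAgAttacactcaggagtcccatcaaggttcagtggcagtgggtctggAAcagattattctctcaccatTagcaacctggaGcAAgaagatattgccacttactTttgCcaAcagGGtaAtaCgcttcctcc
Igkv10-94 and Igkv10-95 were 97.2% identical over this stretch, and Igkv10-95 and Igkv10-96 93.7%. Igkv10-96 was highest in KO replicate 3, where both of the others had 0 counts.

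Families of segments also differed. Heavy family 1, with 35 rows, took 36.8%, 66.3% and 38.8% of heavy variable counts in KO replicates 1 to 3. Family 3, to which Ighv3-8 belongs, took 29.6%, 0% and 3.79%, and family 6 took 10.3%, 2.88% and 30.1%. Among kappa families, family 8 took 23.1% in KO replicate 1, family 1 took 24.6% in KO replicate 2 and family 4 took 27.5% in KO replicate 3, the largest part in each.

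Genes that accompany antibody production moved in part. Of 14 plasma cell genes tested, 4 were called higher in KO and 2 lower, with a median log2 fold change of 0.46 against 0.01 over all genes. For this list and those below, the share over all genes tested was 13.5% called higher and 25.9% called in either direction. Pou2af1, a co-activator of immunoglobulin transcription, had 3, 1 and 1 counts in WT and 41, 11 and 20 in KO (log2 fold change 3.17, SE 0.65, edgeR adjusted p = 0.00573). Slamf7, a surface receptor of plasma cells and other lymphocytes, had 72, 24 and 43 against 822, 238 and 320 (2.72, SE 0.37, edgeR adjusted p = 6.49e-04). Both were highest in KO replicate 1, with no overlap between the groups. Pou2af1 passed the expression filter only with its KO counts, so a lower call was hardly open to it. Irf4, a factor needed for plasma cells, rose by 1.06 (SE 0.27) and Sdc1, the plasma cell surface proteoglycan also made by other cells, by 0.68 (SE 0.21).

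Of the other plasma cell genes, Xbp1 and Tnfrsf17 were not called and Cd27 and Txndc5 fell. Xbp1, the factor that expands the secretory pathway, stood at 60.7 ± 6.29 CPM in WT and 71.6 ± 6.08 in KO (log2 fold change 0.24, edgeR adjusted p = 0.253). Tnfrsf17, the receptor BCMA, had 12, 4 and 1 counts in WT and 18, 21 and 6 in KO, with overlap. Cd27, a receptor of memory lymphocytes that T cells also carry, fell, from 404, 145 and 1254 counts to 122, 56 and 103 (-3.20, SE 0.51, edgeR adjusted p = 0.00170), and Txndc5 fell by 0.45 on the log2 scale. Which cells gave the WT counts of Cd27 was not tested. The sum of the plasma cell list ran from 110.0 to 132 CPM in WT and from 115 to 140 in KO, and the groups overlapped. Most of it came from Xbp1 and from Txndc5, which stood at 34.0 ± 4.22 CPM in WT and 24.9 ± 2.46 in KO. The sum therefore says little about list genes with few counts, such as Pou2af1. With either WT replicate 3 or KO replicate 1 left out, 2 of the genes were called higher, and leaving out any single library gave 1 lower.

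B cell genes had few counts. Of 8 tested, with a median log2 fold change of 0.59, 2 were called higher and 0 lower, namely Blnk, a signalling adaptor, at a log2 fold change of 1.08 (SE 0.19, edgeR adjusted p = 0.00283) and Cd22, an inhibitory receptor, at 1.19 (SE 0.39, edgeR adjusted p = 0.0445). Ms4a1, which encodes CD20, had 3, 2 and 8 counts in WT and 11, 31 and 9 in KO. Pax5, the factor that defines the lineage, had 3, 0 and 5 against 1, 8 and 3. Cd79a, a chain of the B cell receptor, had 5, 0 and 10 against 23, 14 and 9 and was not called (edgeR adjusted p = 0.283). For Ms4a1, Pax5 and Cd79a the groups overlapped, unlike Igkc, Ighg2b and Igj. The B cell list summed to 26.4 to 31.4 CPM in WT and 32.8 to 49.3 in KO, most of it from Ebf1, a factor also made by other cells, at 22.7 ± 2.24 and 28.5 ± 7.65 CPM, and these sums did not overlap. On leaving out WT replicate 1, WT replicate 2, KO replicate 1 or KO replicate 2, 1 B cell gene was called higher, as by limma-voom.

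Genes of antibody assembly had few counts. Rag1, of the recombinase, had 2, 1 and 2 counts in WT and 0, 0 and 2 in KO. Dntt, which adds bases at the junctions, had 2, 3 and 4 against 55, 60 and 41. Of the 6 genes found on its list it was the 1 tested, and it was called higher (log2 fold change 3.54, SE 0.56, edgeR adjusted p = 0.00159). It passed the expression filter only with its KO counts. Igll1, Vpreb1 and Vpreb3, which form the surrogate light chain or resemble it, had at most 14 counts in any library. Of 4 germinal centre and class switch genes tested, with a median of 0.57, 1 was called in each direction. S1pr2, a sphingosine receptor, rose by 1.02 (SE 0.20, edgeR adjusted p = 0.00498) and Ung, a uracil-DNA glycosylase, fell by 1.21 on the log2 scale (SE 0.33, edgeR adjusted p = 0.0208). With WT replicate 1, WT replicate 2, KO replicate 1 or KO replicate 2 left out, 0 genes of this list were called lower by edgeR, and 2 were called higher without WT replicate 2.

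T cell genes were mostly higher in KO. Of 10 tested, 7 were called higher and 0 lower, with a median log2 fold change of 2.54. Of the called genes, Cd4, Cd3g, Cd5, Cd6 and Lck passed the expression filter only with their KO counts. A lower call was hardly open to them, and the median partly reflects this. Cd28 and Cd2 passed it in the WT libraries as well. Cd4, the co-receptor of helper T cells, had 3, 1 and 0 counts in WT and 100, 22 and 37 in KO (log2 fold change 4.59, SE 0.77, edgeR adjusted p = 0.00215). Cd3g, a chain of the T cell receptor complex, had 1, 0 and 2 against 39, 10 and 19 (3.77, SE 0.76), and Cd3e, below the filter, had 1, 0 and 0 against 34, 17 and 12. Cd28, the co-stimulatory receptor, rose by 2.61 (SE 0.21), Cd2 by 2.48 (SE 0.35), Cd5 by 2.95 (SE 0.62) and Lck by 2.25 (SE 0.59), each past the threshold by edgeR. The list summed to 3.22 to 4.86 CPM in WT and 9.19 to 15.6 in KO. Without WT replicate 2 and KO replicate 1 together, 4 T cell genes were called. Macrophage genes moved as well, with 7 of 10 called higher, 0 lower and a median log2 fold change of 1.26. Cd68, a lysosomal marker, rose by 1.51 (SE 0.36, edgeR adjusted p = 0.0124), Csf1r, the receptor that keeps these cells alive, by 1.16 (SE 0.22) and the complement gene C1qa by 1.32 (SE 0.30). The list summed to 77.1 to 179 CPM in WT and 245 to 353 in KO. The part of these cells in the segment counts was not tested.

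Genes listed for antibody receptors and transport were mostly higher in KO, with 7 of 10 tested called higher and 1 lower. The median log2 fold change was 1.23, and not every gene listed binds antibody itself. The receptors for the IgG tail Fcgr2b, which inhibits, and Fcgr3, which activates, rose by 1.68 (SE 0.22, edgeR adjusted p = 5.57e-04) and 1.63 (SE 0.29, edgeR adjusted p = 0.00294). Fcgr4 had 23, 5 and 6 counts in WT and 280, 39 and 29 in KO (2.75, SE 0.80), Fcer1g, the shared signalling chain, rose by 1.29 (SE 0.35), and Fcrls by 1.17 (SE 0.25). Fcgrt, the neonatal receptor that recycles IgG, rose by 0.42 (SE 0.14, edgeR adjusted p = 0.0427). Fcamr, a receptor for IgM and IgA, fell from 35, 19 and 20 counts to 8, 7 and 12 (-2.05, SE 0.43, edgeR adjusted p = 0.00636). Fcgr4 passed the expression filter only with its KO counts and Fcamr only with its WT counts. Pigr, which carries joined antibody across epithelia, had 6, 0 and 0 counts against 0, 0 and 6. Without KO replicate 1, 3 of these genes were called higher, and macrophages carry several of them.

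**Figure D5:**
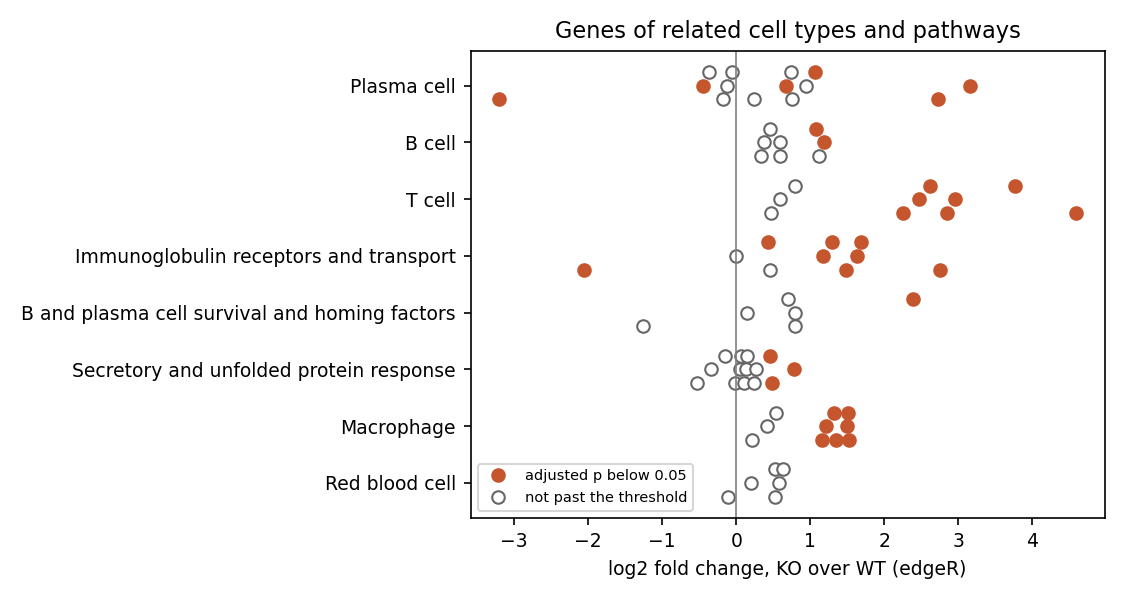
Log2 fold change, KO over WT, of each tested gene in 8 lists of related cell types and pathways, from edgeR. Filled points had an adjusted p below 0.05, and vertical position within a row only separates points. T cell genes reached 4.59, while no red blood cell gene was past the threshold.

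Factors that attract or sustain B and plasma cells were led by Cxcl12, a chemokine made by many stromal cells, at 53.0 ± 8.19 CPM in WT and 58.6 ± 10.5 in KO (log2 fold change 0.15, SE 0.17, edgeR adjusted p = 0.580). Of 6 tested, with a median log2 fold change of 0.74, 1 was called higher and 0 lower, Ltb, a lymphotoxin chain, at 1, 1 and 5 counts in WT and 31, 10 and 17 in KO (log2 fold change 2.39, SE 0.67, edgeR adjusted p = 0.0232). Ltb passed the expression filter only with its KO counts. Tnfsf13b, which encodes the survival factor BAFF, had 28, 11 and 27 counts against 81, 36 and 54, with no overlap, but was not past the threshold (0.80, SE 0.33, edgeR adjusted p = 0.105). Cxcl13, the B cell attractant, had 70, 25 and 3 against 25, 24 and 8. In the secretory pathway 3 of 14 genes were called higher and 0 lower, Edem1 at 0.78 (SE 0.19), Pdia4 at 0.48 (SE 0.15) and Manf at 0.46 (SE 0.14), with a list median of 0.12. Sec61b, at -0.54 (SE 0.18, edgeR adjusted p = 0.0505), lay just outside a lower call. With DESeq2, limma-voom, robust dispersion, the replicate block or no filter, 1 secretory gene was called lower. The same held by edgeR without WT replicate 2 or without KO replicate 1. Over all genes tested 13.5% were called higher, so little is read from the number of calls in either list. By edgeR, 0 secretory genes were called higher when WT replicate 3 was dropped, where 4 had an unadjusted p under 0.05, and 1 when KO replicate 1 or either of WT replicates 1 and 2 was dropped. Ltb was not called on dropping any of the latter 3 libraries.

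Blood left in the tissue was followed by red cell genes. Hbb-b1, a beta globin gene, had 2853, 1308 and 4953 counts in WT and 7397, 5689 and 7055 in KO (log2 fold change 0.63, SE 0.26, edgeR adjusted p = 0.101). Of 6 red blood cell genes tested, 0 were called in either direction by edgeR, 2 had an unadjusted p under 0.05, and DESeq2 called 1 higher. Their median log2 fold change was 0.53. Without WT replicate 3, 4 were called higher by edgeR. The list summed to at most 112 CPM in WT and 124 in KO, and the groups overlapped. The part of blood in the segment counts was not tested.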

How the data were processed

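RNA from frozen tibialis anterior was made into strand-specific libraries depleted of ribosomal RNA, per the labels' protocols. TopHat2 2.0.14, Bowtie, HTSeq 0.6.1, bcl2fastq 2.17.1.14 and the build mm9 appear without roles in the submitters' processing notes. No source used here states the strand setting, the annotation or how reads shared between segments were counted. The authors deposited raw read counts per gene. A normalized signal per kb of gene length is also deposited by the authors, per the file headers. The authors' own log2 fold change, p-value and adjusted p-value stand in the same deposited table, with no source used here naming the test.

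Counts were fitted with edgeR 4.0.16 in R 4.3.3 (TMM, filterByExpr with a minimum count of 10 and total of 15, quasi-likelihood F test, no covariate), with Benjamini-Hochberg adjustment over the 16628 genes tested and a threshold of 0.05. "Rose" and "fell" are used past that threshold. Sums and shares over segments were given no test. CPM values use TMM-scaled library sizes, and a segment absent from WT was set against a floor of 3 counts over the group. Fold changes of genes near 0 counts depend on a prior count of 0.125. The SE given with an edgeR log2 fold change was worked back from the test. It is the absolute log2 fold change divided by the square root of the F statistic. On simulated counts with 200 changed genes, the fit for KO against WT recovered 77% of changes of log2 1 and 96% of log2 2 among 16228 genes, with 13 false calls. The changed genes were drawn from those with higher counts, so these rates do not carry over to members or list genes with few counts. Sequences come from GENCODE M21 transcripts on GRCm38, not the authors' build, so no position was joined to the counts. Members were matched by identifier for 27 of 64 and by symbol for all 64, with Igj as Jchain. Joining segments (6 rows) were left out by the rule. Of 123 list symbols 120 were found, and others are not analysed here.

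The members, lists and rule for naming genes were chosen with earlier results of these data known. Named were Igkc, Ighg2b, Igj, every constant member, the 8 heavy, 8 kappa and all lambda variable members with most counts, up to 5 members with over 80% of at least 100 counts in 1 library, both targeted genes, up to 6 called genes per list and defining markers. Igkv10-95, Igkv5-43, Ighv8-8, the remaining list genes and the Ckm check were named after their values were seen. Alternatives were other size factors and filters, DESeq2 1.42.0, limma-voom (limma 3.58.1), robust dispersion, the replicate block, and each library left out. Figures were drawn with matplotlib 3.10.9.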

Additional observations from a re-analysis of the deposited data

How the results depend on the processing

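Igj and Igkc kept their direction and their side of the threshold under all 15 alternatives tried, with a highest adjusted p of 0.00238 and 0.0412. Igkv1-110 and Ighv1-81, with 0 counts in WT, could not turn direction, and their highest adjusted p was 0.00482 and 0.0141. Igkc, Ighg2b and Iglc2 passed the main filter only with KO counts, so a lower call there was hardly open. With at least 10 counts over the 6 libraries, a minimum their WT counts reach alone, their edgeR adjusted p was 0.00241, 0.00308 and 0.0205. Ighg2b was called in 14 of 15 and Iglc2 in 11, where limma-voom gave Iglc2 an adjusted p of 0.0803. The authors' deposited table, not among these 15, did not call Ighg2b. Ighg2c was called in 4, namely library size alone, no filter, the replicate block and without WT replicate 3, with adjusted p-values from 2.78e-04 to 0.771. Ighm was called in 0 by edgeR, DESeq2 or limma, with an adjusted p from 0.051 to 0.846, and its log2 fold change ran from -0.72 without WT replicate 2 and KO replicate 1 together, or -0.64 without WT replicate 2 alone, to 0.080 without WT replicate 3.

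With library size alone 3418 genes were called higher and 1030 lower, and the median of all genes moved from 0.01 to 0.22 on the log2 scale. The members called higher numbered 47 without a filter and 14 with at least 10 counts, where more members were tested, and 6 to 13 when single libraries were left out. Such omissions gave 1391 to 2321 genes higher and 1168 to 2189 lower. Chosen after seeing the data, leaving out WT replicate 2 and KO replicate 1 together gave 1113 higher, 977 lower and 6 members, with 4 T cell, 2 plasma cell and 4 receptor genes higher. With single libraries left out, 2 to 5 plasma cell and 3 to 6 receptor genes were higher. The replicate numbers did not pair the samples (r of same-numbered deviations 0.0604, 0.0154 and 0.0632), and the replicate block gave 2457 genes higher, 2236 lower and 7 members.

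The ratio of KO to WT means over all members was 1.60, 2.81 in the length-divided signal and 30.6 without Ighm and Ighg2c. The same omission moved the IgG ratio from 4.71 to 69.3. Omitting single libraries gave ratios of 14.9 to 40.5 for light chains, 30.3 to 108 for variable segments and 0.645 to 1.06 for Ighm, which was 0.941 by library total alone. The heavy share of counts, 79.6% in KO and 97.98% in WT, was 56.5% and 93.1% in the signal and 41.1% and 17.7% without Ighm and Ighg2c. Variable segments detected per WT library averaged 8.02 after thinning. The cause was not tested. With 3 libraries a group and at most 45 light chain counts in a WT library, shares in WT are imprecise.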
